A study of Caenorhabditis elegans with 63 samples.

Results

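The genes mir-51, mir-52 and mir-53 are 3 of the 6 members of the miR-51 family of Caenorhabditis elegans. They were taken as every row whose hairpin name is mir-51, mir-52 or mir-53, which gave 6 mature arms of 276 (3 hairpins of 138) in both count tables. Each hairpin contributed a 5p arm, its abundant strand, and a 3p arm written with a star, the rarer strand of the duplex. The rule used gene names and no measured value, but the members were chosen with earlier results of these data known.

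Small RNA of whole worms grown at 20 °C was sequenced from strains carrying changes in drsh-1, and the design text calls these deletion mutants. The NEBNext table holds 22 libraries. Its groups are wildtype, drsh-1 (cdb328) I and drsh-1 (cdb330) I, each at the L4 larval stage and as Adult with 3 libraries. Adults of a strain with drsh-1::gfp and tdp-1::mScarlet, in which Drosha and the RNA-binding protein TDP-1 carry fluorescent tags, form a group of 2 libraries, and the same tags over drsh-1(null) form another group of 2. The second table, made with adaptors that carry degenerate bases and called bias-minimized, holds 41 libraries. It has Adults of wildtype, cdb328 and cdb330 (3 libraries each) and 32 libraries, here called the mir-80 series, whose stage the labels do not give. That series has wild type, the alleles cdb493, cdb494, cdb495, cdb496 and cdb530 of mir-80 (on chromosome III), drsh-1(cdb263 cdb328), and the mutant drsh-1 combined with each mir-80 allele. The combination with cdb530 is labelled drsh-1(cdb328), and the other 4 carry drsh-1(cdb263 cdb328). Below, cdb328-type means cdb328 alone or with cdb263. No group carries cdb263 alone, so its part cannot be told apart from that of cdb328. Groups hold 2 or 3 libraries. The labels state neither the bases that each allele removes or alters nor how many independent strains stand behind it. Nothing in the labels says that libraries of a group came from separate cultures, so p-values measure the spread between these libraries, which may be technical.

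Drosha, encoded by drsh-1, is the nuclear RNase III enzyme that, with its partner Pasha (DGCR8), cuts a primary transcript on both sides of a hairpin and releases the precursor that Dicer then trims to a duplex. One strand of the duplex, usually the abundant one, is kept in an Argonaute protein, and the other is mostly degraded. The miR-51 family is related to the miR-99/miR-100 family of other animals and is abundant in most tissues of the worm. Loss of the whole family is lethal to embryos, with a failure of pharynx attachment that involves the cadherin gene cdh-4, whereas worms lacking single members are largely normal.

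In the WBcel235 annotation mir-51 lies at IV:11026013-11026112 and mir-53 at IV:11027593-11027691, both on the minus strand. Their hairpins are 1480 bases apart, and 1 annotated gene, a non-coding RNA, and 0 protein-coding genes lie between them. Their nearest protein-coding neighbours are alh-3, 143 bases from mir-51, and hrg-5, 598 bases from mir-53. The third gene, mir-52, lies apart at IV:14034008-14034107 on the plus strand, 3006316 bases from mir-53, and overlaps a non-coding RNA on the opposite strand, Y37A1B.335, by 83 bases. These positions describe the annotated genes and not the counted intervals, since the build behind the tables was not stated. The mature strands of mir-52 and mir-53 are near-identical, as background. How the counting divided reads that match both was not stated, which leaves the split between these genes uncertain.

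Libraries held 1891780 to 5565918 miRNA reads in the NEBNext table, 578859 to 2585561 in the bias-minimized Adults and 155736 to 2355231 in the mir-80 series. Levels below are counts scaled to 1000000 miRNA reads per library (CPM). In wildtype L4 replicate 1, mir-53_5p had 2254 reads (930 CPM), with a 95% Wilson interval of 893 to 969 CPM. Such intervals cover counting error only and are narrower than the spread between libraries. The 16 arms of the miR-35 family, known for their embryonic expression, made up 1.619% to 8.20% of miRNA reads in the L4 groups and 15.2% to 18.9% in the NEBNext Adults. The muscle miRNA gene mir-1 had 10.7% to 15.6% at L4, and the 4 arms of the neuronal genes lsy-6 and mir-124 had 5.36 to 53.4 CPM in the NEBNext table, where lsy-6_5p* was at 0 in all 22 libraries. The reads do not measure drsh-1 itself. In the mir-80 series the abundant mir-80 strand, mir-80_3p, had 62624 to 85831 CPM in wild type and 1873 to 28568 CPM in the 5 mir-80 alleles with intact drsh-1. In that series 5 libraries stood apart for mir-46_3p, mir-47_3p and mir-51_3p*, and 9 for mir-58a_3p, as described with the star arms.

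Read level differed strongly among the 3 genes, and their order depended on the library protocol. With NEBNext, wildtype Adults had 35348, 42468 and 37143 CPM of mir-51_5p (38320 ± 3703, SD, n = 3), 8644, 10159 and 11701 of mir-52_5p (10168 ± 1529) and 496.2, 589.8 and 644.4 of mir-53_5p (577 ± 75). The 3 ranges did not overlap, and mir-51_5p was the highest. With the bias-minimized adaptors, wildtype Adults had 13650, 11720 and 19652 CPM of mir-51_5p (15007 ± 4136), 68284, 72974 and 76129 of mir-52_5p (72463 ± 3948) and 6959, 6738 and 6547 of mir-53_5p (6748 ± 206). There mir-52_5p was the highest, again without overlap.

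For the same genotype and stage, mir-51_5p was thus 2.55-fold higher with NEBNext, while mir-52_5p was 7.13-fold and mir-53_5p 11.7-fold higher with the bias-minimized adaptors. The tables were made separately, so these folds are descriptions without a test, and no order of abundance among the genes is read from either table alone. A read spans a whole mature strand, so no length scaling was applied. Over all libraries mir-51_5p ranked 5 to 16 among all arms with NEBNext, 15 to 29 in the bias-minimized Adults and 12 to 34 in the mir-80 series. In the same sets mir-52_5p ranked 13 to 26, 2 to 3 and 1 to 2, and mir-53_5p ranked 54 to 66, 34 to 37 and 25 to 41. Together the 6 arms took 3.48% to 6.60% of miRNA reads with NEBNext, 8.62% to 10.3% in the bias-minimized Adults and 7.71% to 17.7% in the mir-80 series.

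**Figure D1:**
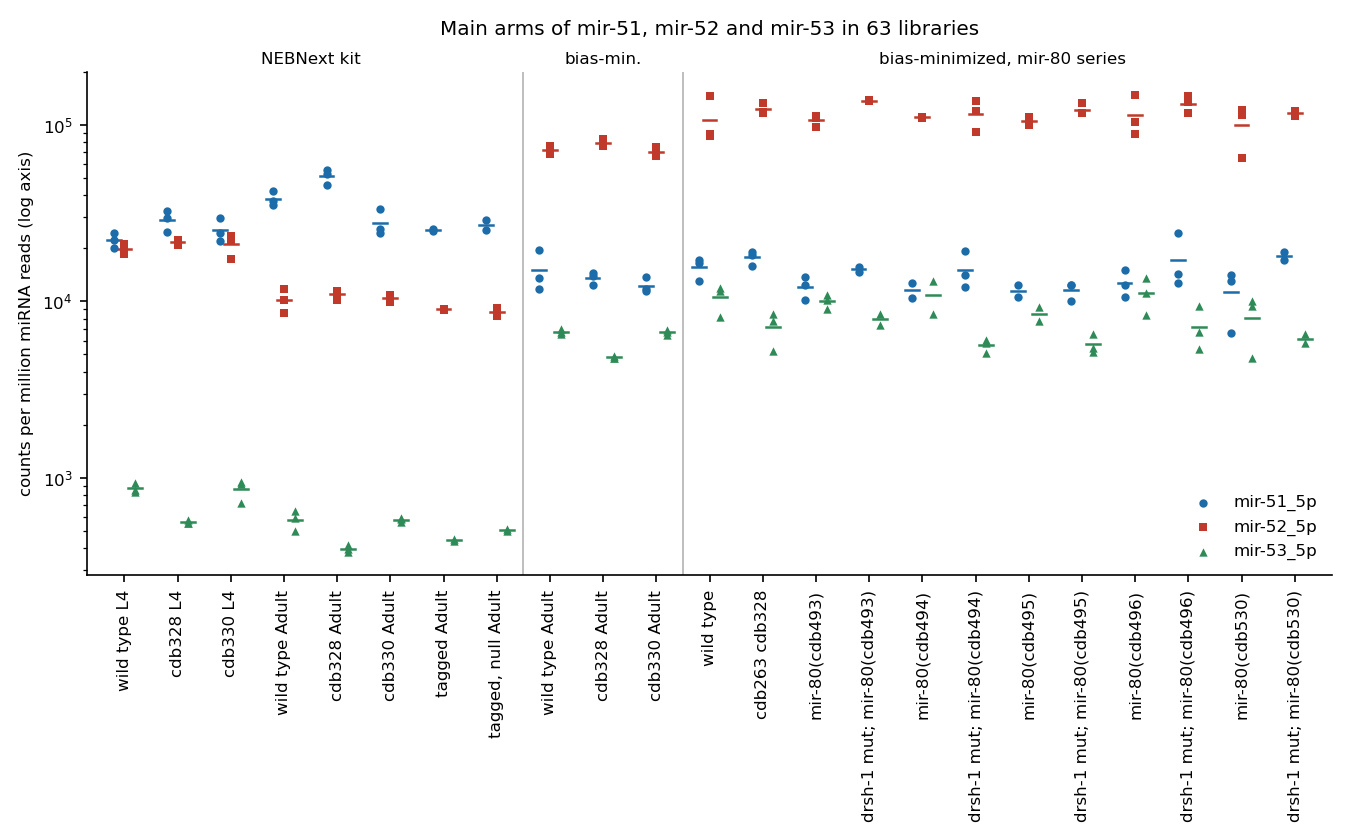
Level of the abundant arm of each gene in all 63 libraries, in CPM on a log axis, by group. Each dot is a library and each short line a group mean; mir-51_5p is highest in the NEBNext Adults (38320 CPM on average in wildtype) and mir-52_5p in every bias-minimized group (72463 CPM in wildtype Adults).

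As a share of the summed 5p reads of the 3 genes, mir-51_5p held 51.6% ± 3.5 (SD, n = 3) in wildtype L4 and 78.1% ± 2.6 in wildtype Adults of the NEBNext table. The share of mir-52_5p was 46.4% ± 3.4 at L4 and 20.7% ± 2.5 in Adults. In wildtype L4 these genes were neighbours in level, with mir-51_5p at 22274, 20038 and 24279 CPM and mir-52_5p at 21297, 19881 and 18562 CPM, and their ranges overlapped. Over the bias-minimized Adults the share of mir-51_5p was 12.2% to 19.2%, that of mir-52_5p 74.4% to 81.8% and that of mir-53_5p 4.70% to 7.83%. The corresponding shares in the mir-80 series were 7.61% to 14.4%, 75.6% to 88.5% and 3.62% to 9.98%. The least abundant 5p arm was mir-53_5p in every NEBNext library, with 0.573% to 2.10%.

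**Figure D2:**
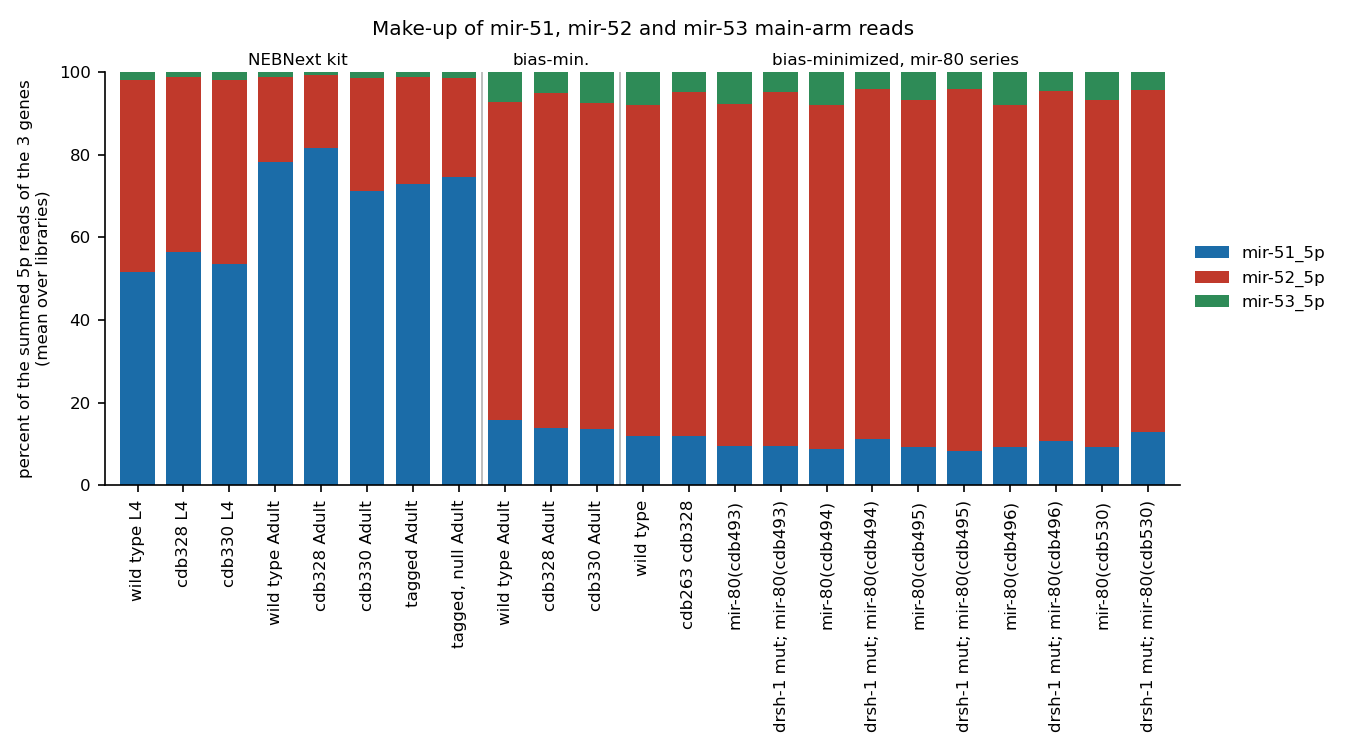
Mean percent of the summed 5p reads that mir-51, mir-52 and mir-53 contributed in each of the 23 groups, stacked to the whole. With NEBNext, mir-51 had 51.6% at L4 and 78.1% in Adults of wildtype, while mir-52 held at least 74.4% in every bias-minimized library.

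The star arms were rare. With NEBNext, mir-51_3p* lay between 64.5 and 164 CPM, mir-52_3p* between 4.91 and 35.2 CPM, and mir-53_3p* between 0.373 and 2.39 CPM (1 to 10 reads), which is too few reads for a test in that table. With the bias-minimized adaptors, wildtype Adults had 444, 579 and 541 CPM of mir-51_3p*, 264, 293 and 471 of mir-52_3p* and 27.7, 38.6 and 51.8 of mir-53_3p*. The lowest mir-51_3p* and the highest mir-52_3p* library overlapped there, whereas mir-53_3p* lay below both.

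The comparison of cdb328 with wildtype asks whether this drsh-1 allele changed the members' levels. The abundant arm of mir-53 was lower with cdb328 at both stages and with both protocols. Wildtype L4 libraries had 930, 857 and 825 CPM of mir-53_5p and cdb328 L4 libraries 552, 573 and 555. In Adults cdb328 had 417, 396 and 377 CPM, against the wildtype values above, and with the bias-minimized adaptors 4797, 4878 and 4790.5. In each of these comparisons every cdb328 library lay below every wildtype library.

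Changes were tested with edgeR's quasi-likelihood test, with p-values adjusted by Benjamini-Hochberg over all arms tested and called at 0.05. By this test mir-53_5p fell at L4 (log2 fold change −0.45, SE 0.11, adjusted p = 0.00101), in NEBNext Adults (−0.63, SE 0.11, adjusted p = 2.84e-05) and in bias-minimized Adults (−0.36, SE 0.07, adjusted p = 0.00364). At L4, 3 of the 5 arms tested were called, where 57.2% of all 215 arms were. In NEBNext Adults 2 of 5 were called (49.3% of all arms), and in bias-minimized Adults 3 of 6 (49.2% of 191 arms). The members were therefore called at about the rate of all arms, and the count is no result about them. By direction, all arms were called lower at 26%, 31.2% and 25.1% and higher at 31.2%, 18.1% and 24.1% in these comparisons. The calls of mir-53_5p in these 3 comparisons were made also when any 1 of the libraries compared was left out.

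In the mir-80 series, mir-53_5p lay between 4761 and 13660 CPM in the 16 libraries with intact drsh-1 (median 9767) and between 5083 and 9361 CPM in the 16 with mutant drsh-1 (median 6280), so the levels overlapped. Wild type had 8200, 11453 and 11957 CPM and drsh-1(cdb263 cdb328) 8440, 7776 and 5217. Here mir-53_5p fell (−0.65, SE 0.20, adjusted p = 0.0197), in a comparison that called 1 of 6 members and 20.8% of 207 arms (15.5% lower, 5.31% higher). That call was lost without wild type replicate 2 (adjusted p = 0.0802) or 3 (0.211), and without drsh-1(cdb263 cdb328) replicate 2 (0.0651) or 3 (0.0701). It was also lost under total-count scaling (−0.56, adjusted p = 0.149) and under spike-in scaling (−0.79, 0.141), without a filter (−0.51, 0.0670), with scaling factors taken without the miR-51 family (−0.52, 0.102), and without the 5 libraries that stood apart (−0.47, 0.214).

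On the mir-80 alleles the mutant drsh-1 was compared with intact drsh-1 on the same allele. On cdb494, mir-53_5p had 8516 and 13125 CPM with intact and 5840, 5083 and 6055 with mutant drsh-1, and it fell by 0.99 on the log2 scale (adjusted p = 0.00150), with 1 of 6 members and 19.8% of all arms called (16.4% lower, 3.38% higher). On cdb496 it had 11195, 13660 and 8426 CPM against 5378, 9361 and 6746, and it fell by 0.58 (adjusted p = 0.0386), with 1 of 6 members and 19.3% of all arms called (15.9% lower, 3.38% higher). The cdb494 call was lost under spike-in scaling (−1.02, adjusted p = 0.0882) and in a fit of only the groups compared (−0.90, 0.204). Replicate 2 of mir-80(cdb494) with intact drsh-1 was the shallowest library of the series, with 155736 miRNA reads. Without the 5 libraries that stood apart the cdb494 fall was 0.82 (adjusted p = 0.0424), and on cdb496 the value was −0.33 (adjusted p = 0.373). The cdb496 call was lost also without replicate 1 (adjusted p = 0.0524) or 2 (0.232) of the intact group and without replicate 1 (0.192) or 3 (0.156) of the mutant group, and with DESeq2's Wald test (adjusted p = 0.0913), total-count scaling (0.110), spike-in scaling (0.0589), no filter (0.0843) and a fit of only the groups compared (0.119).

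On the other alleles mir-53_5p was not called. Its log2 fold changes were −0.38 on cdb493 (adjusted p = 0.247), −0.34 on cdb495 (0.243) and −0.30 on cdb530 (0.317), the last of which was called without mir-80(cdb530) replicate 1 (−0.55, adjusted p = 0.0346). On cdb493 and on cdb495, edgeR called 0 of 6 members (18.4% and 24.2% of all arms, of which 14% and 17.4% were called lower and 4.35% and 6.76% higher), with 0 at an unadjusted p under 0.05 and 0 by DESeq2. The difference between the drsh-1 effect on each allele and that on wild-type mir-80 was also tested. In these 5 contrasts 0 of 30 member tests were called by edgeR, 0 had an unadjusted p under 0.05 and DESeq2 called 0, while 0% to 2.42% of all arms were called.

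Averaged over the 6 mir-80 backgrounds, mir-53_5p fell by 0.54 on the log2 scale (SE 0.09, adjusted p = 1.18e-05), with 4 of 6 members and 56% of all 207 arms called. Without the 5 libraries that stood apart it fell by 0.40 (adjusted p = 0.00273). Over all 9 comparisons of cdb328-type drsh-1 with intact drsh-1, which share no control library, its log2 fold change was negative in 9 (−0.99 to −0.30, median −0.45) and called lower in 6. The bias-minimized Adult libraries carry the library names of the NEBNext Adults with an added suffix, and the same replicate numbers, so these Adult comparisons may rest on the same worms and are not taken as separate support. It was negative in 9 of 9 under each of the other 8 ways of scaling, filtering, fitting or testing, with 3 to 6 calls. Under spike-in scaling the range was −1.02 to −0.61, with 3 calls. RNA came from whole animals, so fewer cells of a type and less RNA per cell cannot be told apart.

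**Figure D3:**
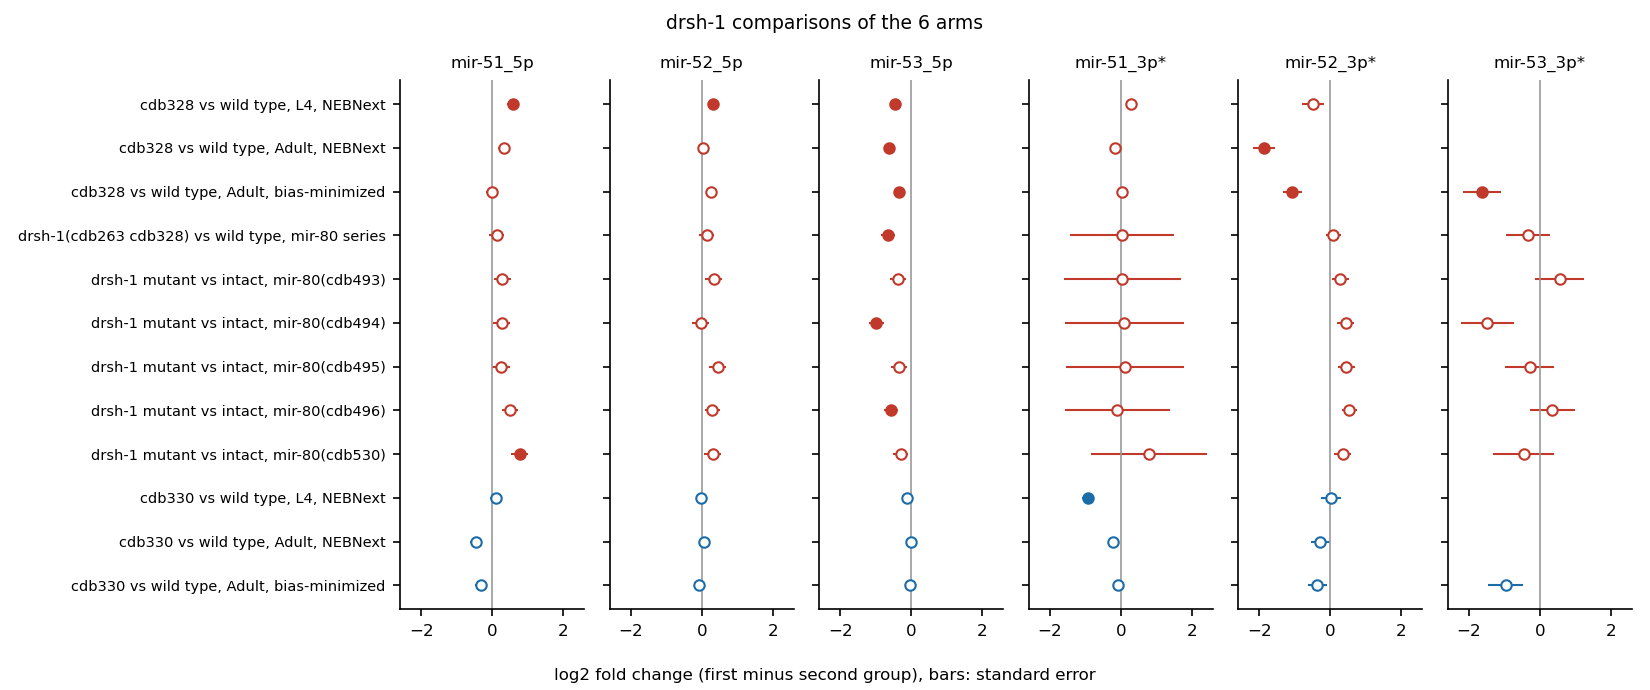
Log2 fold change (± SE, edgeR) of the 6 member arms in 9 comparisons of cdb328-type drsh-1 (red) and 3 of cdb330 (blue) with intact drsh-1; filled points have an adjusted p under 0.05 and open points do not. All 9 red points of mir-53_5p lie between −0.99 and −0.30, whereas mir-53_3p* could not be tested in the NEBNext table.

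The ratio of mir-53_5p to mir-52_5p reads within a library needs no scaling between libraries. It set the cdb328-type libraries apart from their controls without overlap in each of the 9 comparisons. The ratio of mir-51_5p to mir-52_5p did so in 1. How many arms outside the members would separate the libraries when set against mir-52_5p was not counted, so 9 of 9 has no share of all arms beside it. In the NEBNext table the ratio of mir-53_5p to mir-52_5p was 0.0437, 0.0431 and 0.0445 in wildtype L4 and 0.0254, 0.0255 and 0.0265 in cdb328 L4, a 1.70-fold lower ratio. Wildtype Adults had 0.0574, 0.0581 and 0.0551 and cdb328 Adults 0.0362, 0.0350 and 0.0371 (1.58-fold lower). With the bias-minimized adaptors the values were 0.102, 0.0923 and 0.0860 in wildtype and 0.0621, 0.0640 and 0.0576 in cdb328 (1.52-fold lower).

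In the mir-80 series the 16 libraries with intact drsh-1 had ratios of 0.0735 to 0.132 (median 0.0881) and the 16 with mutant drsh-1 of 0.0429 to 0.0718 (median 0.0509). The sets did not overlap, although the level of neither arm separated them. Per background the ratio was 1.51-fold (cdb530) to 1.94-fold (cdb494) lower. The cdb494 value was −0.95 on the log2 scale and ranged from −1.28 to −0.63 when mir-80(cdb494) replicate 1 or 2 was left out.

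An exact permutation test of 3 against 3 libraries cannot give a two-sided p below 0.1, or below 0.2 for 3 against 2, and each of the 9 comparisons reached that smallest value. The lowest adjusted p over the 144 ratio tests made was 0.32. Permuting the drsh-1 genotype within the 6 mir-80 backgrounds at once gave a mean log2 difference of −0.79 (1.73-fold lower, lower in 6 of 6 backgrounds) with p = 1e-05 in a two-sided permutation test, the smallest that 100000 resamples can give, and 3e-05 adjusted over 6 ratios tested so. Without the 5 libraries that stood apart it was −0.79 with p = 2e-05 (permutation test). This test was chosen after the data were seen. Its ratios share arms with each other and use the same reads as the level tests above, so it is not separate support. Pairs of arms outside the members were not tested so. In the same permutation test the ratio of mir-51_5p to mir-53_5p was 1.87-fold higher with mutant drsh-1 (p = 1e-05, higher in 6 of 6), and that of mir-51_5p to mir-52_5p differed by 0.11 on the log2 scale (p = 0.211, permutation test, higher in 3 of 6).

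**Figure D4:**
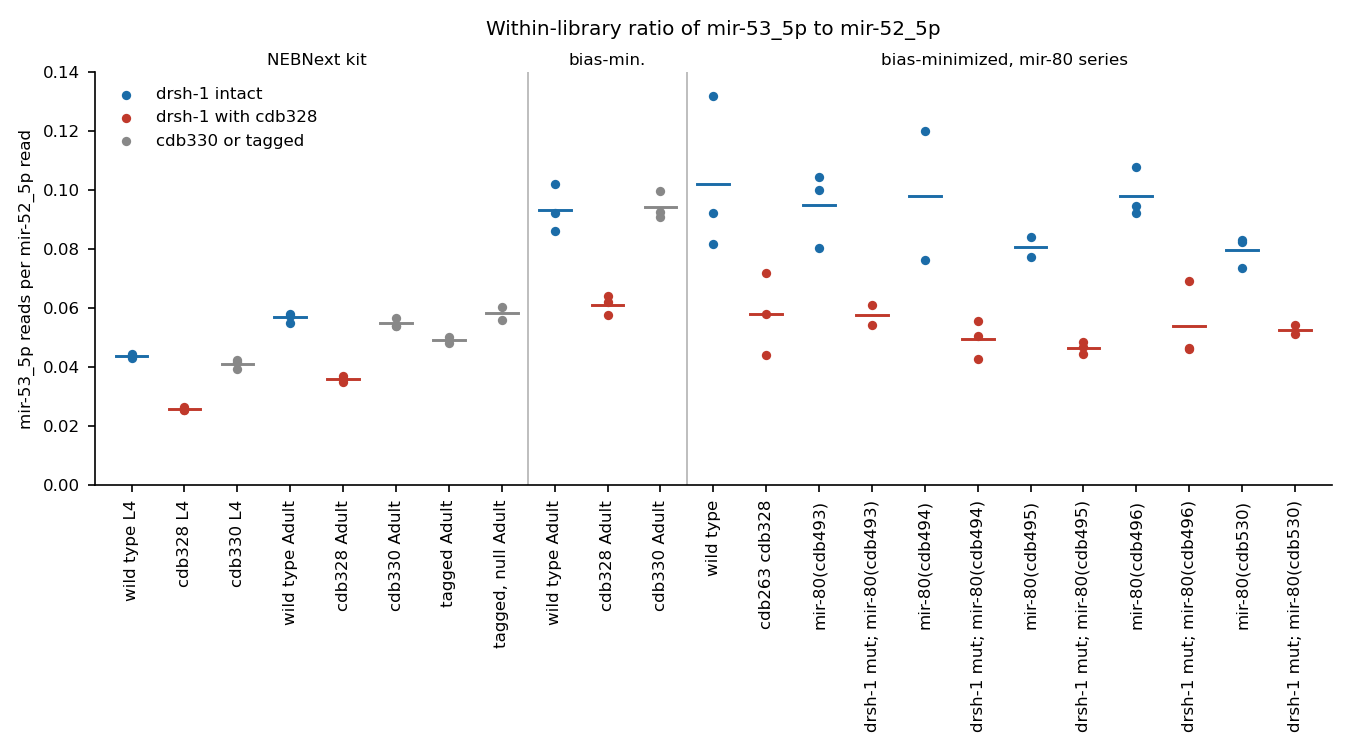
Reads of mir-53_5p per read of mir-52_5p in every library, by group, with a line at each group mean; blue marks intact drsh-1, red the cdb328-containing alleles, and grey cdb330 and the tagged strains. Red libraries of the mir-80 series (0.0429 to 0.0718) lie below all blue ones (0.0735 to 0.132), and cdb330 lies near wildtype.

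With the main scaling the abundant arms of mir-51 and mir-52 were called higher or not called. At L4, mir-51_5p had 32591, 24754 and 29734 CPM in cdb328, all above the wildtype libraries, and rose (0.57, SE 0.15, adjusted p = 0.00231). Its call was lost without wildtype L4 replicate 1 (0.41, adjusted p = 0.0568) or 2 (0.39, 0.0736), and under spike-in scaling (0.29, 0.252). At L4, mir-52_5p had 21752, 22432 and 20979 CPM in cdb328, which overlapped wildtype, and rose by 0.31 (SE 0.10, adjusted p = 0.0123). That call did not hold without wildtype L4 replicate 1 (0.18, adjusted p = 0.273) or 2 (0.19, 0.240), without cdb328 L4 replicate 1 (0.28, 0.05004), or under total-count scaling (0.13, 0.358). It was lost also under spike-in scaling (0.03, adjusted p = 0.917) and without a filter (0.14, 0.315). Scaling factors taken without the miR-51 family (0.12, 0.340) and a fit of only the groups compared (0.16, 0.0786) did not give it either.

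In NEBNext Adults mir-51_5p had 45472, 53027 and 55308 CPM in cdb328, above all wildtype libraries, but was not called (0.33, adjusted p = 0.0718). It was called with DESeq2's Wald test (0.40, adjusted p = 0.0278) and without cdb328 Adult replicate 1 (0.43, 0.0314). There mir-52_5p had 11528, 11300 and 10166 CPM in cdb328, within the wildtype range (0.02, adjusted p = 0.877). In bias-minimized Adults mir-52_5p had 77243, 76183 and 83212 CPM in cdb328, above the wildtype libraries, with a log2 fold change of 0.25 (adjusted p = 0.0523). With replicate number as a block, it was called at the same size (0.25, adjusted p = 0.0296), and it was called also with DESeq2's Wald test (0.27, 0.0160). There mir-51_5p had 12397, 14487 and 13888 CPM in cdb328 and −0.01 (adjusted p = 0.978).

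In the mir-80 series mir-51_5p ranged from 6613 to 17233 CPM (median 12571) with intact and from 10054 to 24289 CPM (median 15189) with mutant drsh-1. Averaged over the 6 backgrounds it rose by 0.37 (SE 0.10, adjusted p = 0.00209), and by 0.42 without the 5 libraries that stood apart. That call was lost under spike-in scaling (0.083, adjusted p = 0.776). The level of mir-52_5p ranged from 64798 to 148367 CPM (median 109342) with intact and from 91523 to 145258 (median 120088) with mutant drsh-1, with an averaged rise of 0.25 (SE 0.09, adjusted p = 0.0272), which was 0.40 without those 5 libraries (adjusted p = 0.00163). The mir-52_5p call was lost without mir-80(cdb494) replicate 2 (0.23, adjusted p = 0.0551) and under total-count scaling (0.21, 0.0643), and under spike-in scaling the value was −0.05.

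On single backgrounds 1 such call was made, mir-51_5p on cdb530 (0.78, SE 0.24, adjusted p = 0.0166), where 1 of 6 members and 30% of all arms were called (13% higher, 16.9% lower). It had 6613, 14113 and 13115 CPM with intact and 18997 and 17198 with mutant drsh-1. It was lost without mir-80(cdb530) replicate 1 (0.53, adjusted p = 0.0887) and without either mutant library (0.66, 0.137, and 0.80, 0.0945), and under total-count (0.68, 0.0794) and spike-in scaling (0.13, 0.897). Over the 9 comparisons mir-51_5p was positive in 8 (−0.01 to 0.78, median 0.29) and mir-52_5p in 8 (−0.03 to 0.45, median 0.29), with 2 and 1 called higher. Spike-in scaling moved the median of all arms by −0.29, −0.15 and −0.51 in the 3 comparisons of cdb328 and by −0.28 in the series average. Under it mir-51_5p was negative in 3 of the 9, of which 1 was called lower, and mir-52_5p in 6 with 0 called. No direction for mir-51_5p and mir-52_5p is therefore stated across scalings.

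Marker levels differed beside these comparisons. Neuronal markers summed to 18.6 to 29.7 CPM in wildtype L4 and 44.3 to 53.4 in cdb328 L4, and to 8.20 to 12.7 and 16.1 to 27.0 CPM in the NEBNext Adults. In the bias-minimized Adults they summed to 694 to 902 CPM in wildtype and 1423 to 1699 CPM in cdb328. Over the 41 bias-minimized libraries this sum was nearly all mir-124_3p (687 to 5376 CPM), with lsy-6_3p at 41.53 CPM or less. With NEBNext the highest lsy-6_3p level lay above the highest mir-124_3p level (15.83 CPM). The sum therefore weighs the genes differently in each table. Whether these miRNAs still track neurons when drsh-1 is mutant was not tested. The muscle gene mir-1 had 10.7% to 12.5% of reads in wildtype L4 and 13.4% to 15.6% in cdb328 L4, and 7.36% to 9.39% and 10.2% to 11.5% in the NEBNext Adults, without overlap at either stage. In the bias-minimized Adults mir-1 overlapped, at 1.77% to 2.28% in wildtype and 1.98% to 2.30% in cdb328. Summed miR-35 family reads were 13.6% to 15.1% in bias-minimized wildtype Adults and 11.1% to 12.5% in cdb328. With NEBNext the summed miR-35 family overlapped at both stages. It had 5.86% to 7.90% in wildtype L4 and 7.28% to 8.20% in cdb328 L4, and 16.4% to 18.9% and 16.3% to 17.0% in the Adults. By arm, 6 of 16 were called higher and 0 lower with cdb328 at L4, where 31.2% and 26% of all arms were. In NEBNext Adults 1 was called higher and 5 lower (18.1% and 31.2% of all arms). In bias-minimized Adults 0 were called higher and 6 lower (24.1% and 25.1% of all arms). Summed neuronal markers in the mir-80 series were higher with mutant than with intact drsh-1, without overlap, on cdb493 (2801 to 5401 against 1682 to 1770 CPM), cdb494 (1752 to 2335 against 892.5 to 1639), cdb495 (2513 to 3363 against 1859 to 2182) and cdb530 (1333 to 1755 against 719 to 1066). On wild-type mir-80 (2156 to 4665 against 1642 to 2521 CPM) and cdb496 (2273 to 4290 against 1590 to 3213) they overlapped. The miR-35 family was higher without overlap on cdb493 (9.77% to 14.3% against 7.95% to 9.15%), cdb494 (10.9% to 13.3% against 8.02% to 8.85%) and cdb495 (9.25% to 12.2% against 5.49% to 5.71%), overlapped on the other 3 backgrounds, and had 8 of 16 arms called higher and 0 lower in the average. In that series mir-1 was higher with mutant drsh-1 without overlap on cdb494 (3.04% to 4.02% against 2.23% to 2.93%) and overlapped on the other backgrounds. The part of these markers in the results of mir-51, mir-52 and mir-53 was not tested.

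The star arm of mir-52 fell with cdb328 in Adults of both tables, and that of mir-53 in the bias-minimized Adults, the Adult table in which it could be tested. With NEBNext, mir-52_3p* had 13.4, 19.3 and 35.2 CPM in wildtype Adults and 9.51, 5.10 and 4.91 in cdb328, without overlap, and it fell (−1.87, SE 0.32, adjusted p = 2.84e-05). With the bias-minimized adaptors it had 126, 166 and 155 CPM in cdb328, below all wildtype libraries, and fell (−1.07, SE 0.28, adjusted p = 0.0148), a call that was lost without wildtype replicate 3 (−0.75, adjusted p = 0.0603). At L4 it had 17.3, 12.3 and 19.2 CPM in wildtype and 9.54, 8.90 and 11.3 in cdb328 without overlap, and was not called (−0.49, SE 0.30, adjusted p = 0.181), but was without wildtype L4 replicate 2 (−0.78, adjusted p = 0.0402). With 10 to 90 reads a library in the NEBNext table, small changes of this arm were not detectable.

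In bias-minimized Adults mir-53_3p* had 12.6, 5.71 and 17.3 CPM in cdb328, below all wildtype libraries, and fell by 1.63 (SE 0.52, adjusted p = 0.0345). The call was lost when wildtype replicate 2 (adjusted p = 0.0762) or 3 (0.0880) or cdb328 replicate 1 (0.0745) or 2 (0.0779) was left out. For mir-51_3p* edgeR and DESeq2 called 0 of the 9 comparisons (−0.16 to 0.79), though edgeR called it at L4 without wildtype L4 replicate 3 (0.42, adjusted p = 0.0462).

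The ratio of mir-52_5p to mir-52_3p* reads was 636, 522 and 330 in NEBNext wildtype Adults and 1179, 2108 and 1981 in cdb328 (3.55-fold higher). It was 258, 249 and 161 in bias-minimized wildtype and 613, 458 and 532 in cdb328 (2.43-fold higher), in each case without overlap. Across the mir-80 series mir-52_3p* ranged from 198 to 430 CPM with intact and from 196 to 617 CPM with mutant drsh-1 and, averaged over backgrounds, rose by 0.36 (adjusted p = 0.00269), while its ratio to mir-52_5p differed by −0.10 (p = 0.441, permutation test within backgrounds). Under spike-in scaling that rise was not called (0.09, adjusted p = 0.714). The Adults and the series were not compared in 1 fit, since stage, strain and set differ together and cannot be told apart.

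With cdb330 none of the 3 abundant arms was called against wildtype by edgeR with the main scaling, at either stage or with either protocol. At L4, mir-53_5p had 723, 926 and 947 CPM (−0.11, adjusted p = 0.461) and mir-52_5p 17350, 23515 and 22337 CPM (−0.02, adjusted p = 0.922), both overlapping wildtype. Spike-in scaling called both higher there (0.53 and 0.62). With the main scaling the single call of 5 was mir-51_3p*, where 31.2% of all arms were called. It had 98.6, 125 and 135 CPM in wildtype and 64.5, 67.1 and 69.2 in cdb330, and fell by 0.94 (SE 0.16, adjusted p = 8.15e-05). Under spike-in scaling, which moved the median of all arms by 0.64, this fall was not called (−0.30, adjusted p = 0.204). In the same libraries the miR-35 family was at 1.619% to 2.601% of reads, against 5.86% to 7.90% in wildtype L4, with 14 of its 16 arms called lower. There the neuronal markers summed to 35.4 to 48.7 CPM, and mir-1 had 13.2% to 13.9% of reads, against 10.7% to 12.5% in wildtype L4. Their part in the result of mir-51_3p* was not tested.

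In NEBNext Adults edgeR called 0 of 5 members for cdb330 (7.44% of all arms), with 1 at an unadjusted p under 0.05 and 1 called by DESeq2. That arm was mir-51_5p, which had 33226, 24355 and 25820 CPM, all below wildtype (−0.47, SE 0.15, adjusted p = 0.0511). Its adjusted p was 0.0327 with a replicate block, 0.00492 without wildtype Adult replicate 3 and 0.0283 without cdb330 Adult replicate 1. There mir-53_5p had 590, 583 and 560 CPM (0.00, adjusted p = 0.991). In bias-minimized Adults edgeR called 0 of 6 members (0.524% of all arms), with 0 at an unadjusted p under 0.05 and 0 by DESeq2, and mir-53_5p had 6460, 6696 and 6849 CPM (−0.05, adjusted p = 0.844). The ratio of mir-53_5p to mir-52_5p in cdb330 was 0.0417, 0.0394 and 0.0424 at L4, below wildtype by 0.09 on the log2 scale without overlap. In NEBNext Adults it was 0.0541, 0.0541 and 0.0567, overlapping wildtype, and in bias-minimized Adults 0.0926, 0.0998 and 0.0908.

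Since cdb328 and cdb330 share their wildtype controls, they were also compared with each other. At L4 mir-53_5p was lower in cdb328 than in cdb330 (−0.34, SE 0.11, adjusted p = 0.00805), with 4 of 5 members and 62.3% of all arms called. That call was lost without cdb330 L4 replicate 3 (−0.23, adjusted p = 0.0642). The ratio of mir-53_5p to mir-52_5p was 1.59-fold lower, without overlap. At L4 mir-51_5p (0.48, adjusted p = 0.00764) and mir-52_5p (0.33, 0.00686) were higher in cdb328. The mir-51_5p call was lost without cdb328 L4 replicate 1 (0.0635) or cdb330 L4 replicate 2 (0.0515), and the mir-52_5p call without cdb330 L4 replicate 1 (0.0565). Under total-count scaling neither was called (0.20, adjusted p = 0.194, and 0.04, 0.753), and in a fit of only the groups compared mir-52_5p was not (0.16, 0.244). Under spike-in scaling, which moved the median of all arms by −0.93, both were lower (−0.45 and −0.59). The fourth arm, mir-51_3p*, was higher in cdb328 by 1.23 (adjusted p = 4.17e-07), and by 0.34 (adjusted p = 0.147) under spike-in scaling.

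In Adults, 3 of 5 members and 40.9% of all arms were called between the alleles. Relative to cdb330, cdb328 had less mir-53_5p (−0.64, SE 0.11, adjusted p = 3.34e-05) and less mir-52_3p* (−1.59, SE 0.33, adjusted p = 0.000306), and more mir-51_5p (0.80, SE 0.15, adjusted p = 0.000109). For mir-53_5p the groups did not overlap, with 417, 396 and 377 CPM in cdb328 against 590, 583 and 560 in cdb330. These 3 calls were made also when any 1 library was left out.

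Between L4 and Adult the NEBNext reads moved toward mir-51_5p over mir-52_5p. The bias-minimized table has no libraries labelled L4. In wildtype mir-51_5p rose by 1.32 on the log2 scale (SE 0.15, adjusted p = 1.23e-07) and mir-52_5p fell by 0.44 (SE 0.10, adjusted p = 0.000663), in a comparison that called 3 of 5 members and 67% of all arms. The ratio of mir-51_5p to mir-52_5p went from 1.046, 1.008 and 1.308 at L4 to 4.09, 4.18 and 3.17 in Adults, a 3.40-fold rise without overlap. In cdb328 it went from 1.498, 1.104 and 1.417 to 3.94, 4.69 and 5.44, with mir-51_5p up by 1.07 and mir-52_5p down by 0.73 (2 of 5 members and 47.4% of all arms called). In cdb330 it went from 1.71, 0.931 and 1.09 to 3.04, 2.26 and 2.62 with 0.75 and −0.37 (4 of 5 members and 70.2% of all arms called). Each of these differences had p = 0.1 in a two-sided exact permutation test, the smallest that 3 against 3 libraries allow (adjusted p = 0.32).

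The stage comparisons depend on the scale. In wildtype mir-53_5p was not called with the main scaling (−0.07, adjusted p = 0.576), but fell by 0.59 with total-count scaling and by 0.84 with spike-in scaling, and its CPM in Adults lay below all L4 libraries. In wildtype the median of all arms was −0.27 with the main scaling, which total counts moved by −0.53 and spike-ins by −0.77. In wildtype mir-51_5p rose and mir-52_5p fell under each scaling tried. In cdb330 spike-in scaling, which moved the median by −1.35, turned mir-51_5p to lower in Adults (−0.59), and with total counts its rise was not called (0.13, adjusted p = 0.353). The summed miR-35 family rose from 5.86% to 7.90% of reads in wildtype L4 to 16.4% to 18.9% in wildtype Adults, and the muscle gene mir-1 went from 10.7% to 12.5% to 7.36% to 9.39%. Their part in the stage changes was not tested.

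The star arm mir-52_3p* rose with stage in wildtype (0.98, SE 0.27, adjusted p = 0.00303), a call lost without wildtype Adult replicate 3 (0.55, adjusted p = 0.0653) and under total-count scaling (0.46, 0.149). In cdb330 it rose by 0.68 (adjusted p = 0.0281), which was lost without replicate 1 (0.0809) or 2 (0.0628) of L4 and replicate 1 (0.0945) or 3 (0.0724) of Adults. In cdb330 mir-51_3p* also rose, by 0.93 (adjusted p = 2.63e-05). With total counts neither star arm was called in cdb330 (0.05, adjusted p = 0.891, for mir-52_3p* and 0.31, 0.126, for mir-51_3p*). Under spike-in scaling both arms were lower in cdb330 Adults (−0.67 for mir-52_3p*, −0.42 for mir-51_3p*, the latter not called). The test of whether the cdb328 effect differed between stages called 0 of 5 members with edgeR (3.26% of all arms), with 1 at an unadjusted p under 0.05 and 0 by DESeq2. For cdb330 it called 1 of 5, mir-51_3p* (0.73, SE 0.23, adjusted p = 0.0281), where 16.3% of all arms were called, and DESeq2 called 2.

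The tagged strain had 25132 and 25743 CPM of mir-51_5p, 9110 and 8964 of mir-52_5p and 439 and 450 of mir-53_5p. Against wildtype Adults 2 of 5 members were called lower (20.9% of all arms, and 32.1% in either direction), mir-51_5p (−0.56, SE 0.17, adjusted p = 0.0106) and mir-53_5p (−0.34, SE 0.11, adjusted p = 0.0185). Both calls were lost without wildtype Adult replicate 2 (adjusted p = 0.0941 and 0.152) or without tagged replicate 1 (0.0536 and 0.0805) or 2 (0.0661 and 0.118), and that of mir-53_5p also without wildtype Adult replicate 3 (0.0581). Under spike-in scaling, which moved the median of all arms by 2.05, both arms were higher (1.48 and 1.71), so no direction is stated. With drsh-1(null) in the tagged strain the values were 29054 and 25329, 8276 and 9171, and 501 and 513 CPM. Between the tagged groups edgeR called 0 of 5 members (4.19% of all arms), with 1 at an unadjusted p under 0.05, mir-53_5p (0.26, adjusted p = 0.258), and 0 by DESeq2.

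The 5 mir-80 alleles with intact drsh-1 were compared with the same 3 wild-type libraries, so their results are not independent. Over the 5 comparisons edgeR called 0 of 30 member tests, with 1 at an unadjusted p under 0.05 (mir-51_5p on cdb496, −0.47) and 0 by DESeq2. The log2 fold changes ranged from −0.58 to 0.56 and the lowest adjusted p was 0.254. In the same comparisons 0.966% (cdb493, cdb494 and cdb496), 5.8% (cdb495) and 12.6% (cdb530) of all arms were called.

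The level of mir-51_3p* split the mir-80 series in a way the groups do not follow. It was 2.96 to 18.9 CPM in 5 of the 32 libraries and 516 to 1462 CPM in the other 27. The 5 were wild type replicate 3, drsh-1(cdb263 cdb328) replicate 2, mir-80(cdb496) replicate 2, and the mutant drsh-1 with cdb494 replicate 1 and with cdb496 replicate 3. The same 5 were low in mir-46_3p (53.3 to 104 against 4325 to 9212 CPM) and mir-47_3p (63.8 to 91.0 against 5442 to 11775 CPM), and 0 other arms were low in exactly these libraries. The abundant arm of the same hairpin, mir-51_5p, was at 15074 to 24289 CPM in these 5 libraries and 6613 to 18997 in the others. Of the bias-minimized arms, 20 differed over 15-fold between libraries of at least 2 groups, and mir-51_3p* was the 1 member among them. In 9 libraries, 4 of them among these 5, mir-58a_3p was at 0.0775% to 0.269% of reads against 10.8% to 27.3% in the rest. The averaged effect of mutant drsh-1 on mir-51_3p* was 0.16 (adjusted p = 0.868) with every library and 0.35 (adjusted p = 0.00752) without these 5, so the value depends on them. As these 5 are also the libraries where mir-51_3p* itself is low, the adjusted p without them is not read as a test.

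**Figure D5:**
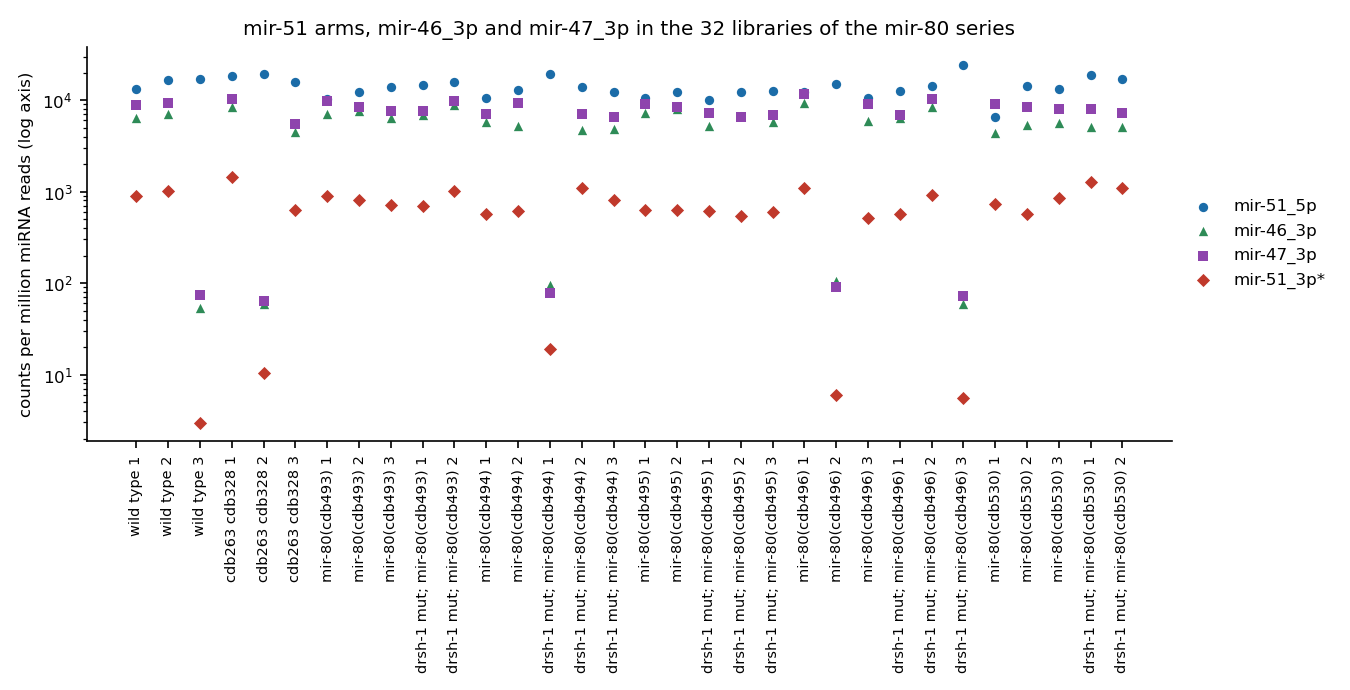
Level of mir-51_5p, mir-51_3p*, mir-46_3p and mir-47_3p in each of the 32 libraries of the mir-80 series, in CPM on a log axis. In 5 libraries mir-51_3p* falls to 2.96 to 18.9 CPM together with mir-46_3p and mir-47_3p, while mir-51_5p stays at 15074 to 24289 CPM.

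The remaining family members, mir-54, mir-55 and mir-56, form a cluster on chromosome X (mir-54 at X:13144996-13145094), all on the minus strand. They lie within the bounds of the gene F09A5.3, which is on the opposite strand. Of their 6 arms, 1 rose and 3 fell with cdb328 at L4 (median of the 6 −0.57, median of all arms 0.04), 1 rose and 3 fell in NEBNext Adults, and 1 rose and 4 fell in bias-minimized Adults and in the series average. The abundant arm mir-54_3p had log2 fold changes of −4.08, −3.62, −2.78 and −3.21 in these comparisons and mir-55_3p of 0.49, 0.33, 0.42 and 0.34. The size for mir-53_5p lay between −0.63 and −0.36. With cdb330, edgeR called 0 of the 6 in each comparison. No test of the difference between family members other than the ratios above was made.

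Across the 8 NEBNext group means the profile of mir-51_5p was closest to mir-784_5p (Pearson r = 0.81 over log2 CPM), mir-34_5p* (0.76) and mir-246_3p (0.68), of 135 arms compared. That of mir-52_5p was closest to mir-46_5p* (0.98), mir-240_3p (0.96) and mir-228_5p (0.96), and that of mir-53_5p to mir-2_3p (0.98), mir-86_5p (0.97) and mir-259_5p (0.95). Across the 15 bias-minimized group means (149 arms) the closest were mir-63_3p (0.76), mir-1822_3p (0.76) and mir-1829b_5p (0.70) for mir-51_5p, mir-228_5p (0.93), mir-57_5p (0.93) and mir-243_3p (0.90) for mir-52_5p, and mir-45_5p* (0.90), lin-4_3p* (0.88) and mir-82_5p* (0.86) for mir-53_5p. Only mir-228_5p, for mir-52_5p, was among the 3 closest in both tables. These are descriptions over group means that share libraries, depth and stage.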

How the data were processed

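The values are the authors' deposited estimated counts, one per mature arm and library. They are unnormalized reads of miRNAs and spike-ins in the NEBNext table, per the file headers, while no header of the bias-minimized table describes its values. The submitters' processing notes name HTSeq, with no version. Aligner, build and annotation were not given in the sources used here. Of the members' values, 14 of 132 (NEBNext) and 10 of 246 lay midway between whole numbers and were rounded. No pair of libraries of 1 group agreed within sampling noise (57 pairs, lowest chi-square per degree of freedom 17.5).

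Changes were tested with edgeR 4.0.16 (R 4.3.3, limma 3.58.1): TMM without the 10 spike-ins, filterByExpr (minimum count 10, minimum total 15), glmQLFit and glmQLFTest, Benjamini-Hochberg adjustment over all arms, threshold 0.05. The 18 NEBNext libraries of wildtype, cdb328 and cdb330, all 22 for the tagged strains, the 9 bias-minimized Adults and the 32 libraries of the mir-80 series were fitted separately, and each SE is the one implied by the F statistic. DESeq2 1.42.0, other scalings, no filter, a replicate block, fits of only the groups compared and leaving out each library were alternatives. The fits were tested on simulated data. Ratios used 0.5 added reads and exact permutation tests (Python 3.11.15, scipy 1.17.1). All 6 member arms are named, other miRNAs by fixed list or likeness. The members and lists were chosen with earlier results of these data known.

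Replicate numbers were taken as pairing samples where every pair's deviations from the group means correlated over 0.1 with 3 pairs, which held in 4 of 16 comparisons: cdb328 (0.528 to 0.599) and cdb330 (0.120 to 0.821) in bias-minimized Adults, and drsh-1(cdb263 cdb328) (0.209 to 0.608) and mir-80(cdb493) (0.230 to 0.770) against wild type.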

Additional observations from a re-analysis of the deposited data

Results flagged for a closer look

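The effect of cdb330 on mir-51_3p* differed between stages by 0.73 on the log2 scale (Adult minus L4, SE 0.23, adjusted p = 0.0281, edgeR interaction contrast). The arm was at 64.5 to 69.2 CPM in cdb330 L4 against 98.6 to 135 in wildtype L4, and at 66.1 to 91.6 CPM in cdb330 Adults against 78.2 to 105 in wildtype Adults. The difference was not called under total-count scaling (0.63, adjusted p = 0.0923), under spike-in scaling (0.15, 0.760) or in a fit of only the groups compared (0.70, 0.0678). Leaving out single libraries gave 0.53 to 0.85, and the call was lost in 8 of 12 cases, the highest adjusted p being 0.162 without wildtype L4 replicate 2.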

How the results depend on the processing

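Of the alternatives for the number of members called and for the main ratios, 540 were rated the same and 20 moved. Another 11 were rated stronger (calls where the main test had 0) and 32 weaker (0 calls left). For counts, the same meant an equal or similar number of calls, also 0 against 0. For ratios within a comparison it meant a shift smaller than the SD within groups. The arms behind a similar count could differ. On cdb496, edgeR with scaling factors taken without the miR-51 family called mir-52_3p* (0.71, adjusted p = 0.0301) and not mir-53_5p (−0.40, 0.172). Spike-in scaling moved most: it called 4 members for cdb330 at L4 (mir-52_5p 0.62, mir-53_5p 0.53, both reversed), 5 for stage in cdb328, 5 for the tagged strain (all reversed: mir-51_3p* 1.83, mir-51_5p 1.48, mir-52_3p* 1.64, mir-52_5p 1.93, mir-53_5p 1.71), 2 for drsh-1(null) in it (mir-51_3p* −0.73, mir-52_5p −0.67), 0 for drsh-1(cdb263 cdb328) and for the mutant drsh-1 on cdb494, cdb496 and cdb530, and 1 in the series average, mir-53_5p (−0.83), where mir-51_5p (0.083), mir-52_3p* (0.095) and mir-52_5p (−0.051, reversed) were no longer called. It also reversed mir-51_5p (−0.45) and mir-52_5p (−0.59) between cdb328 and cdb330 at L4, mir-51_3p* with stage in wildtype (−0.57), and mir-51_3p* (−0.42), mir-51_5p (−0.59), mir-52_3p* (−0.67) and mir-53_5p (−1.31) with stage in cdb330. How much spike-in RNA each library received was not stated. In the NEBNext fits with spike-in scaling, and under none of the other scalings tried, edgeR gave all arms the same shared spread. Total counts called 1 for cdb330 in NEBNext Adults, 4 for stage in cdb328, 2 for stage in cdb330 (mir-53_5p −0.58), and 0 for drsh-1(cdb263 cdb328), cdb496 and cdb530. No filter called 1 for cdb330 in NEBNext Adults, 1 for the tagged strain and 0 for drsh-1(cdb263 cdb328) and cdb496. Fits of only the groups compared called 1 for cdb330 in NEBNext Adults, 0 for the stage difference of cdb330, 1 for the tagged strain, 1 on cdb495 and 0 on cdb494, cdb496 and cdb530. DESeq2's Wald test called 1 for cdb330 in NEBNext Adults and 2 for its stage difference, and DESeq2 size factors 1 for the tagged strain. TMM without the family called 0 for drsh-1(cdb263 cdb328) and cdb530 and 1 on cdb495. Of the alternatives added after seeing the data, leaving out wide-range arms gave 2 on cdb496, and leaving out the 5 libraries that stood apart gave 0 for drsh-1(cdb263 cdb328) and cdb496 and 2 on cdb530. The cause was not tested.

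The replicate block gave 1 call for cdb330 in NEBNext Adults, where the numbers do not pair the samples, and where they do it changed the call of mir-52_5p with cdb328 in bias-minimized Adults (0.25, adjusted p = 0.0296) and no other. Leaving out single libraries gave 1 to 4 calls for cdb328 at L4, 1 to 3 for it in bias-minimized Adults, 0 to 1 for cdb330 in NEBNext Adults, for the stage difference of cdb328, for drsh-1(cdb263 cdb328) and on cdb530, 0 to 2 for the stage difference of cdb330, for the tagged strain and on cdb496, and −1.28 to −0.63 for the ratio of mir-53_5p to mir-52_5p on cdb494.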
